A study of Drosophila melanogaster with 3 samples.

Results

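Genes that steer and wire axons in the Drosophila embryo were examined for binding of Runt, the RUNX-family transcription factor encoded by run. The 36 genes were chosen by name, as guidance ligands, receptors and adhesion molecules, out of 13945 protein-coding genes on the 6 chromosome arms, and every name was found in the annotation. Binding was mapped by ChIP-seq (sequencing of immunoprecipitated chromatin) with an antibody against GFP in whole embryos aged 0 to 16 hours, from a transgenic line that makes Runt with GFP at its C-terminus. All 3 samples are biological replicates of this 1 group, so there is no second condition to set against it. The embryos held all tissues together, and binding in neurons cannot be told apart from binding in other cells.

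Growing axons read cues in their surroundings. Slit, made at the ventral midline, repels axons through Robo receptors, whereas the Netrins attract them through Frazzled and repel them through Unc-5. Semaphorins signal through Plexins, Ephrin through Eph, and Wnt5 through Derailed. Surface proteins such as the Fasciclins, Teneurins, Dscams and the Beat and Side families then hold axons together, keep branches apart or match partners. Runt itself is best known for segmentation, and it is also made in subsets of neurons of the fly nervous system, among them the photoreceptors R7 and R8.

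A peak was counted for a gene when its summit lay in its annotated span or within 5 kb of it. Peaks come from 5 deposited lists. One holds the 3065 peaks kept by the authors after an IDR (irreproducible discovery rate) threshold, a measure of agreement in rank between replicates. The 3 replicate lists and the list called on the pooled replicates hold 30000 each. Peaks are ranked within a list by the authors' own signal value, whose scaling is not given, so signal is not compared between lists. Read depth is unknown from these lists.

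Among the strongest 3065 peaks of every replicate were 13 of 29 intron summits of guidance genes (44.8%). In the whole IDR list it was 660 of 1169 intron summits (56.5%). Of all 43 IDR summits counted for guidance genes, 15 had such support. The sequences around 5 of the summits are shown here, each 151 bases of the plus strand of dm6 centred on the summit, because they cover the strongest summit of the set and the forms the RUNX sequence took at it and at 3 others, with 1 summit without it for contrast. Capitals mark the six-base RUNX core, TGCGGT or TGTGGT on either strand, so that on the printed strand it can read ACCGCA or ACCACA. The first is an intron of beat-VII at chr3R:26655683-26655833, the second the promoter of Wnt5 at chrX:18505263-18505413, the third an intron of Sema1a at chr2L:8588012-8588162, the fourth an intron of Ten-a at chrX:12225544-12225694, and the last an intron of NetA at chrX:14627540-14627690.
beat-VII intron: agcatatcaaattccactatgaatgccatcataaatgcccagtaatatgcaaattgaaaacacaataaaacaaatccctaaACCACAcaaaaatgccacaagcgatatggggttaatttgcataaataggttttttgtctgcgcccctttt
Wnt5 promoter: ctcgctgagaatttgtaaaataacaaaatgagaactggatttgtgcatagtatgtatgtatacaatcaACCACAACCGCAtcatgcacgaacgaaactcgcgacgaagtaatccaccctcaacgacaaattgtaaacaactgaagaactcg
Sema1a intron: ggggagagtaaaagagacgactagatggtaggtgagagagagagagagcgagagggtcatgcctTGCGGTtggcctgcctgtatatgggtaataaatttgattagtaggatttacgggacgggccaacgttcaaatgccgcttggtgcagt
Ten-a intron: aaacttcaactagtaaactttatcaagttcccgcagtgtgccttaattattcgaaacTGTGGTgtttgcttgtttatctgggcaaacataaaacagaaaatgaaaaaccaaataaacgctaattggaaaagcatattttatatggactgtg
NetA intron: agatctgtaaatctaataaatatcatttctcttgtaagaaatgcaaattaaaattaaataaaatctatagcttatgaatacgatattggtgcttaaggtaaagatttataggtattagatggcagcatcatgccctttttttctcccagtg

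The full RUNX consensus, the six-base core followed by C or T on either strand, was found within 50 bases of 4 of the 43 summits counted for guidance genes (9.30%, 95% interval 2.59 to 22.1 by the exact Clopper-Pearson method, which covers counting error alone). Among all 3065 IDR summits it was found at 287 (9.36%). The guidance share rests on few summits. A replicate is left out here by keeping IDR peaks that are among the strongest 3065 of both others. The IDR list itself still rests on all 3 replicates. Without replicates 1, 2 and 3 the guidance share was 3 of 18 (16.7%), 4 of 18 (22.2%) and 3 of 23 (13.0%). Of all IDR summits then left it was 8.94%, 8.67% and 8.51%. The core alone, which the consensus contains, was within 50 bases of 6 guidance summits (14.0%) and 409 of all IDR summits (13.3%). The consensus-bearing guidance summits were those in beat-VII, Wnt5 and Sema1a printed above and the weakest of 4 in fra. In the beat-VII intron the core began 6 bases to the right of the summit, on the minus strand. At the Wnt5 promoter a TGTGGT and a TGCGGT lay end to end on the minus strand, the strand from which Wnt5 is read, and together covered the summit. The Ten-a intron held a core whose flanking base does not complete the consensus. The NetA intron held neither, as did 37 of the 43 summits within 50 bases.

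Counted within 5 kb, guidance genes had IDR peaks about as often as other genes of their length. A summit was counted for 19 of 36, or 52.8%, and genes of the same span classes would give 18.9. Over all protein-coding genes 33.8% had one, but guidance genes are long: 28 of 36 fall in the widest of 10 span classes, which starts at 14627 bases. In that class 17 of 28 guidance genes had a summit, against 771 of 1394 genes (55.3%). The replicates' own strongest peaks, as many as the IDR list holds, gave 19, 18 and 21 guidance genes for replicates 1, 2 and 3 (mean 19.3 ± 1.53 SD, n = 3), with a mean of 19.0 for the same span classes. Over all protein-coding genes the shares were 35.3%, 33.9% and 34.5%. Requiring each IDR peak to be among the strongest of both other replicates left 12 genes without replicate 1, where the span classes gave 15.4, and 13 without replicate 2 or without replicate 3, where they gave 14.9 in each case. The comparison with the span classes depends on the distance. At 0 kb, in the span alone, 18 guidance genes had an IDR summit, with 13.2 for the span classes. Their summits there numbered 37, with 26.1. Within 10 kb 19 genes had a summit, with 21.7. Closer span matching was not tried at 0 kb. At 5 kb the 43 summits compared with 40.0 for the 10 span classes, but with 44.4 for 20 span classes. Against the 100 genes closest in span to each member, a background chosen after seeing the data, they compared with 45.1. No test was run on these or any other counts over the list, since the genes were picked with earlier results of these data known.

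The 43 summits were all distinct. Of these, 29 lay in introns of 15 guidance genes, at least 500 bases from any annotated start. Another 10 lay within 500 bases of a start of 9 guidance genes, which is called their promoter here. The other 4 were an exonic summit in NetB and summits in the flanks of Nrg, Ten-m and robo2. In 28 of 43 cases the nearest protein-coding start was that of the guidance gene itself. By nearest start over the whole list, 16 of 36 guidance genes had a summit, with 13.1 for the same span classes and 14.9% of all protein-coding genes. The strongest peaks of replicates 1, 2 and 3 gave 12, 14 and 16, with 13.05, 13.2 and 13.2 for the span classes and 15.2%, 14.9% and 14.9% of all protein-coding genes, so replicate 1 was below its span classes. Without replicates 1, 2 and 3 the counts were 7, 7 and 8, all below the 10.3, 9.90 and 9.83 of the span classes.

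**Figure D1:**
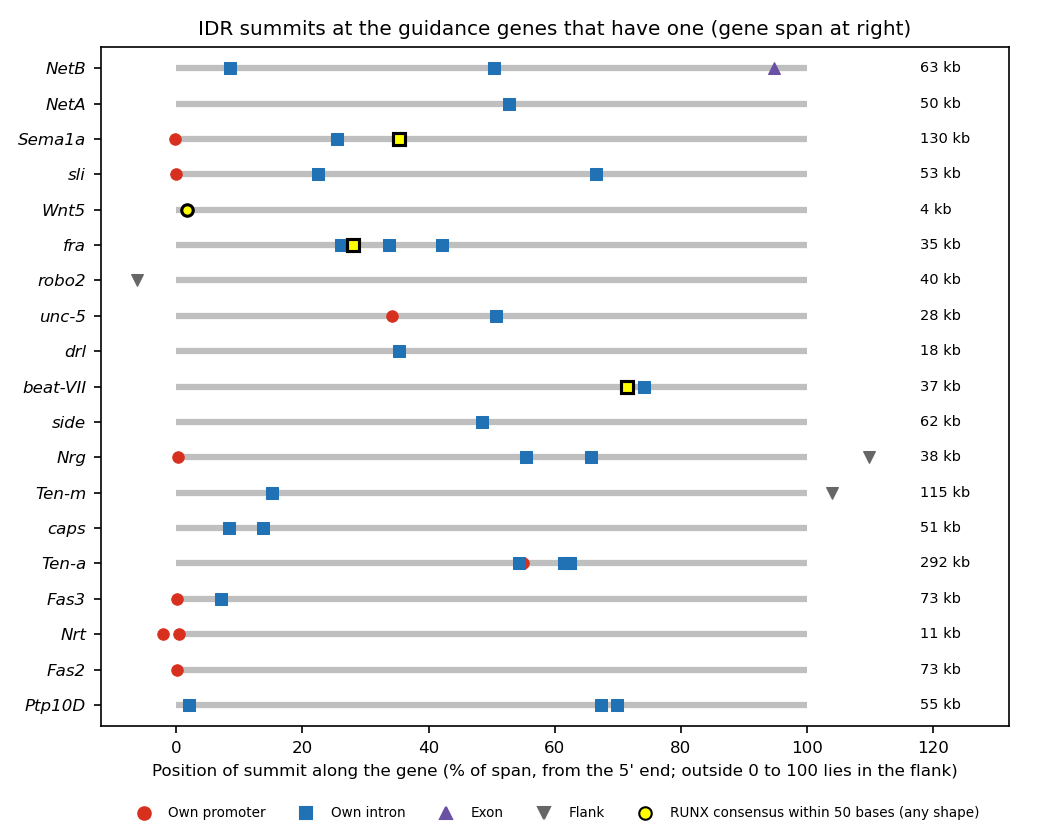
Each row is 1 of the 19 guidance genes with an IDR summit, drawn from its 5′ end (0%) to its 3′ end (100%), with its span at the right. Symbols are summits by location, and yellow symbols with a black edge mark the 4 summits with the RUNX consensus within 50 bases: 29 of 43 summits are intronic and 10 are at promoters.

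Intron summits. An intron summit was found in 15 of 36 guidance genes, with 10.4 for genes of the same span classes and 5.40% of all protein-coding genes. Each replicate alone gave a count above its span classes: 14, 13 and 13 genes for replicates 1, 2 and 3, against 9.98 to 10.03. The share of all protein-coding genes was 5.33%, 5.26% and 5.29% there. The number of intron summits was 29, with 18.9 for the same span classes. Guidance genes also hold more intron sequence than their class as a whole. The median was 33.6 kb per gene for the 28 in the widest class, against 17.9 kb for all 1394 genes there. Per length, the counts were level: 2.22 IDR summits per 100 kb of intron in guidance genes and 2.18 in all genes of the widest class. In the replicates' own strongest peaks the density was 1.83 ± 0.0765 per 100 kb in guidance genes, against 2.08 ± 0.0203 in all genes of the widest class (SD, n = 3), and it was lower in guidance genes in each replicate. Against the 100 genes closest in span to each member, a background chosen after seeing the data, the 29 summits compared with 24.0. Without replicate 1, 14 intron summits were left at guidance genes, with 12.4 for the same span classes, without replicate 2 there were 15, with 12.01, and without replicate 3 there were 18, with 11.8.

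The strongest summit lay in an intron of beat-VII, a member of the Beaten path family of immunoglobulin proteins (chromosome 3R, peak 26655590 to 26655965, rank 109 of the IDR list). It ranked 145, 116 and 97 in replicates 1, 2 and 3, with signals of 138, 220 and 296 on each list's own scale, so all replicates placed it near the top. The summit lay 26208 bases into the gene, and the nearest start was that of Tb, 682 bases away inside the span of beat-VII. A weaker summit in the same gene (rank 2255) lay 27220 bases from the start.

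Among the receptors, fra, which encodes the Netrin receptor Frazzled, carried the most summits. Its 4 intron summits (chromosome 2R, summits at 12538237, 12538888, 12540893 and 12543842) had IDR ranks of 1073, 1093, 289 and 303. In replicates 1, 2 and 3 the strongest ranked 605, 263 and 251, and the next ranked 237, 288 and 465. All 4 were among the strongest peaks of every replicate. They lie 9184 to 14789 bases from the only annotated start of fra, and the nearest start for each is that of CG33752, which lies within the fra span.

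The 2 Netrin genes, whose products are ligands of Frazzled, each had intron summits. In NetB the strongest (chromosome X, summit at 14717451, rank 928) ranked 534, 1715 and 1064 in replicates 1, 2 and 3. It lay 1491 bases from the start of hog, inside the NetB span. The summit in NetA (14627615, rank 990) ranked 1326, 891 and 1145. Both were among the strongest peaks of all replicates. NetB had a second intron summit at rank 2326 and an exonic one at rank 2418.

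Of the other ligands, sli, which encodes the midline repellent Slit, had intron summits at ranks 1414 and 2867 and a promoter summit at rank 2891. The first of these ranked 1325, 786 and 3227 in replicates 1, 2 and 3, so it fell just outside the strongest peaks of replicate 3. Sema1a, a membrane semaphorin that binds Plexin A and can itself act as a receptor, had intron summits at ranks 1284 and 2241. They ranked 1243, 1464 and 1569 for the stronger and 2696, 2709 and 2303 for the weaker, within the strongest peaks of all replicates.

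Adhesion genes with intron summits were Ten-a, caps, Ten-m, Fas3 and Nrg. Ten-a encodes a Teneurin that matches synaptic partners. It spans 291517 bases, and its 5 summits fell in 2 groups. A promoter summit and an intron summit at rank 2734 lay near one internal start, and 3 intron summits (ranks 1164, 1465 and 2596) lay 4102 to 6876 bases upstream of another. The strongest of these ranked 1426, 1900 and 1144 in replicates 1, 2 and 3. The summits at ranks 1465 and 2596 overlap the same replicate peaks and are not separate in those lists.

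The leucine-rich repeat gene caps, which acts in target recognition, had intron summits at ranks 1140 and 2361. The stronger ranked 1005, 1155 and 1712 in replicates 1, 2 and 3. The weaker one, at 3071, 1433 and 6201, was among the strongest peaks of replicate 2 alone. Ten-m, the second Teneurin gene, had an intron summit at rank 1840 (2432, 1641 and 2802), and Fas3, a homophilic adhesion gene, one at rank 1891 (2119, 2766 and 1628), both within the strongest peaks of all replicates. The L1-type adhesion gene Nrg had 2, at ranks 2509 and 2519, which only replicate 3 placed among its strongest.

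The remaining intron summits were weak within the IDR list. Ptp10D, a receptor tyrosine phosphatase gene, had 3, at ranks 1817, 1995 and 2329. The first ranked 3749, 3273 and 1389 in replicates 1, 2 and 3, so replicate 3 alone placed it among its strongest. The Netrin receptor gene unc-5 had 1 at rank 2349, and side, which encodes a partner of Beaten path, had 1 at rank 2638. The Wnt5 receptor gene drl had 1 at rank 2762.

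Promoter summits. A promoter summit was found at 9 of 36 guidance genes, with 7.41 for genes of the same span classes and 11.4% of all protein-coding genes. By each replicate's strongest peaks the count was 7, 8 and 8 (mean 7.67 ± 0.577 SD, n = 3), with a mean of 7.71 for the span classes and 12.4%, 11.6% and 11.4% of all protein-coding genes. Without replicate 1, 2 or 3, when each IDR peak had to be among the strongest of both other replicates, the count was 2 in each case, with 5.67, 5.07 and 5.14 for the same span classes. Only 1 of the 10 promoter summits was among the strongest peaks of all 3 replicates (10%, exact interval 0.253 to 44.5), against 857 of 1393 IDR summits near a start of any annotated transcript (61.5%). The interval takes the 10 as independent, although the summits at Nrt share their replicate peaks. Likewise 1 of 10 was among the strongest 1532 of the IDR list, against 755 of the same 1393 (54.2%).

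The promoter summit with the best rank was that of Wnt5, a ligand of the Derailed receptor (chromosome X, summit at 18505338, 67 bases inside the gene, rank 1457). It ranked 1487, 3263 and 1303 in replicates 1, 2 and 3. The Sema1a promoter summit (chromosome 2L, 8541883, rank 1582) lay 264 bases upstream of the start and ranked 3285, 1699 and 1459. The summit at an internal start of Ten-a (chromosome X, 12203761, rank 1626) ranked 1382, 2451 and 1548, and was the promoter summit found among the strongest peaks of every replicate.

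The others ranked between 2250 and 3013. Nrt, which encodes the Amalgam-binding protein Neurotactin, had summits 249 bases upstream and 44 bases downstream of its start (ranks 2250 and 2505), which overlap the same replicate peaks. Those peaks ranked 3486, 796 and 5112 in replicates 1, 2 and 3, so replicate 2 alone had them high. Nrg (rank 2405) ranked 8813, 1193 and 4162, again high in replicate 2 alone. The homophilic adhesion gene Fas2, an NCAM homologue, had a summit 25 bases inside the gene at rank 2754 (1212, 2910 and 4597). The promoters of unc-5, sli and Fas3 followed at ranks 2562, 2891 and 3013, and each was among the strongest peaks of 1 replicate.

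In the flanks, the summits for Nrg (rank 566) and Ten-m (rank 647) lay past the end of the gene, 139 bases from the start of IntS4 and 173 bases from that of IleRS. The Ten-m flank peak was overlapped by no peak in replicate 3. The robo2 summit (rank 1821) lay 2499 bases upstream of robo2, which encodes a Slit receptor and whose start is the nearest one. It ranked 5312, 1173 and 2021 in replicates 1, 2 and 3.

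Replicate support was lower at guidance summits than over the whole IDR list. Of the 43, 15 (34.9%, exact interval 21.0 to 50.9, counting error only) overlapped by at least 1 base the strongest peaks of all 3 replicates, 14 those of 2 and 14 those of 1. Over all IDR peaks the first share was 57.7%. For intron summits alone it was 13 of 29 (44.8%), against 660 of 1169 intron summits in the whole list (56.5%). Guidance summits were also weaker by rank: the median rank was 1995, against 1533 for the list, and 15 of 43 were among its strongest 1532. Support was not compared among summits of matched rank, so lower support and weaker rank are not separate results here. In the full replicate lists of 30000 peaks, 42 of 43 were overlapped in all replicates. The exact interval takes the 43 as independent, although a pair at Nrt and a pair in Ten-a share replicate peaks.

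**Figure D2:**
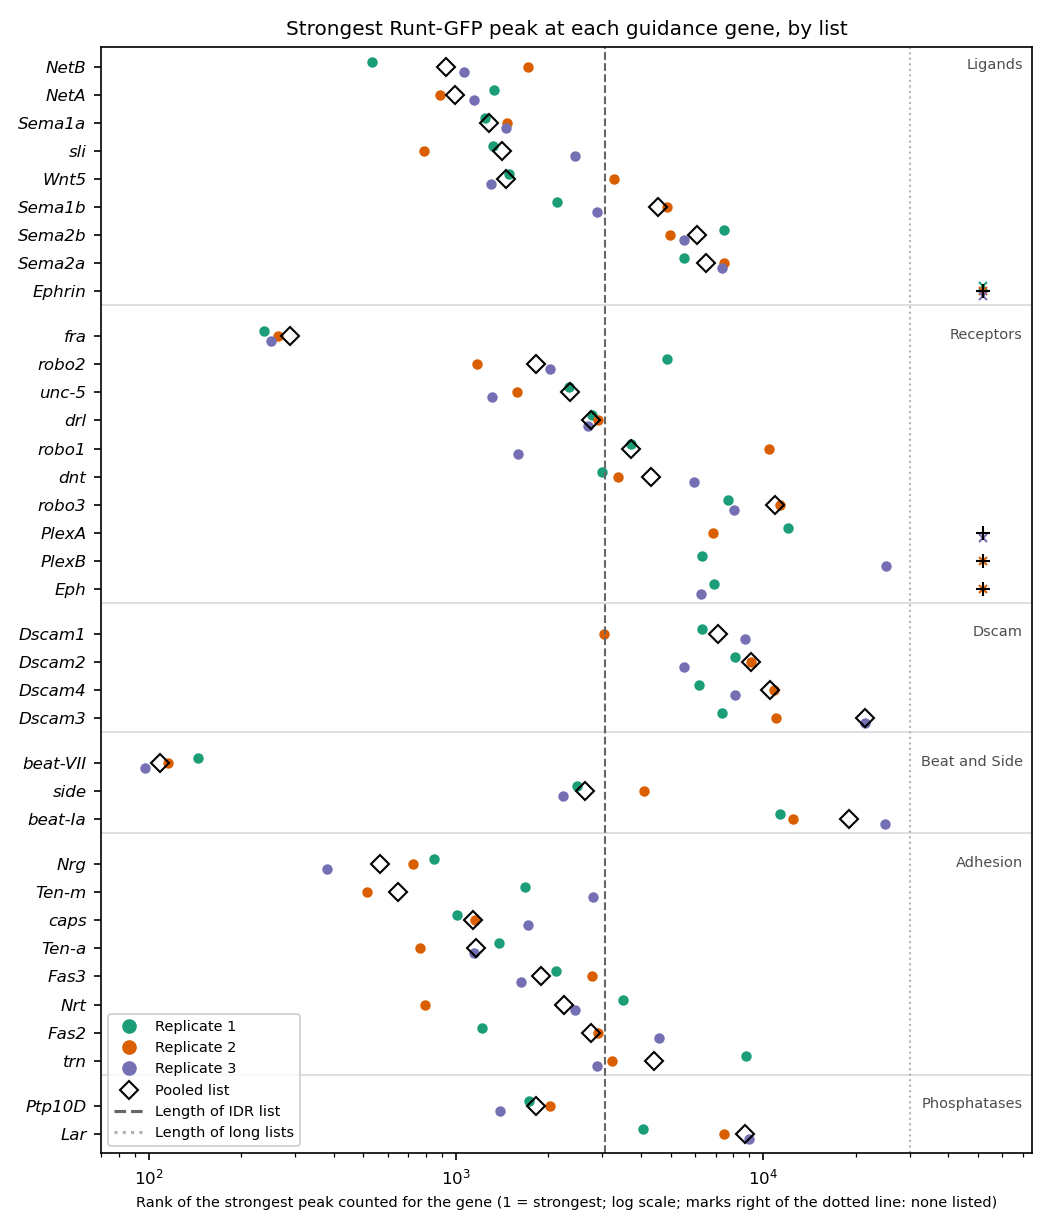
Rank of the strongest peak counted for each of the 36 guidance genes, on a log scale with 1 the strongest, in each replicate list (dots) and in the pooled list (diamonds), grouped by role. The dashed line marks rank 3065, the length of the IDR list, and marks right of the dotted line show that a list of 30000 holds no peak for the gene, which occurs for the 4 genes on chromosome 4.

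Guidance genes without an IDR summit were 17. On chromosome 4, Ephrin, its receptor gene Eph and the Plexin genes PlexA and PlexB had none. No peak of the pooled list was counted for any of them either. Some replicate lists, though not all, held weak peaks for each of them but Ephrin, from rank 6256 down. That arm holds 6 IDR peaks, and 5 of its 80 protein-coding genes (6.25%) had a summit. Leaving these 4 genes out, a count chosen after seeing the data, 19 of 32 guidance genes had a summit, with 17.0 for the same span classes.

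No member of the Dscam family, which encodes immunoglobulin proteins for self-avoidance and tiling of branches, had an IDR summit, with 2.21 of 4 for the same span classes. Dscam1 had its strongest peak at ranks 6318, 3041 and 8726 in replicates 1, 2 and 3, so it passed in replicate 2 alone. The strongest peaks of Dscam2 ranked 8107, 9144 and 5542, those of Dscam3 7373, 11010 and 21490, and those of Dscam4 6194, 10846 and 8080. Over all 30000 pooled peaks the 4 genes had 24 summits, with 51.4 for the same span classes.

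Among the receptors, robo1, the main Slit receptor gene, had none, and its strongest peak ranked 3715, 10437 and 1595 in replicates 1, 2 and 3. For robo3 these were 7702, 11378 and 8047. The drl paralog dnt had its strongest at 2983, 3370 and 5956. The ligand gene Sema1b, a membrane semaphorin, had its strongest at 2128, 4862 and 2887. The secreted semaphorin genes Sema2a (5538, 7443 and 7365) and Sema2b (7466, 4978 and 5515) did not reach it in any replicate. The adhesion gene trn, a relative of caps, ranked 8828, 3215 and 2883.

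The phosphatase gene Lar, which spans 145447 bases, had its strongest peak at ranks 4060, 7486 and 8999. Last, beat-Ia, the founding Beaten path gene, ranked 11312, 12512 and 24897, the weakest of any member off chromosome 4 in each replicate. It stood apart from its paralog beat-VII, which held the strongest peak of all members in every replicate.

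By role, adhesion genes had an IDR summit in 7 of 8 cases, with 4.11 for the same span classes, and in 6, 7 and 7 cases in the strongest peaks of replicates 1, 2 and 3, with 4.17, 4.11 and 4.09. Without replicates 1, 2 and 3 the counts were 5, 5 and 6, with 3.33, 3.23 and 3.24 for the span classes. A promoter summit was found at 5 of the 8, with 1.61 for the span classes and 11.4% of all protein-coding genes. That count was 4, 5 and 2 by the strongest peaks of replicates 1, 2 and 3, with 1.66, 1.73 and 1.62. Without replicates 1, 2 and 3 it was 1, 1 and 2, with 1.225, 1.10 and 1.11 for the span classes. Among the strongest 1532 IDR peaks it was 0, with 0.899. Adhesion genes had 10 intron summits, with 4.01 for the span classes. Per length these were 1.93 per 100 kb over 519 kb of intron, below the 2.18 of all genes of the widest class, whereas over all 30000 pooled peaks the adhesion introns held 35.3 per 100 kb, above the 27.8 of that class. Ligand genes had a summit in 5 of 9 cases, with 4.57 for the span classes, and receptor genes in 4 of 10, with 5.24. Without replicates 1, 2 and 3, ligand genes with a summit numbered 3, 4 and 4, with 3.70, 3.58 and 3.58 for the span classes. Receptor genes then numbered 2, 1 and 2, with 4.27, 4.11 and 4.12. The receptor genes Eph, PlexA and PlexB and the ligand gene Ephrin lie on chromosome 4, where 6.25% of protein-coding genes had an IDR summit. The span classes make no allowance for that. Receptor introns held 4.33 summits per 100 kb, but 4 of their 6 intron summits are those of fra.

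Over all 30000 pooled peaks, 429 summits lay in guidance introns, or 32.8 per 100 kb, against 27.8 per 100 kb in all genes of the widest class. The median number of pooled summits per gene in the widest class was 17 for guidance genes and 10 for all genes. A pooled peak was counted for 32 of 36 guidance genes, with 33.5 for the same span classes and 81.6% of all protein-coding genes. The median rank of the strongest pooled peak was 2494 for guidance genes of the widest class and 2473 for all genes of that class. It was 2758 for all guidance genes and 6268 for all protein-coding genes, and in each of these medians a gene with no pooled peak was ranked after the last one.

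Of 24 other guidance signalling genes, whose products act inside the cell or at its surface, 18 had an IDR summit. The same span classes gave 11.5, and 33.8% of all protein-coding genes had one. The strongest peaks of replicates 1, 2 and 3 gave 17, 21 and 19, with 11.8, 11.6 and 11.5 for the span classes. The counts without each replicate were 17, 15 and 16, with 9.28, 8.97 and 8.95. Among them, the commissureless-family gene comm3 had a summit at rank 319, which lay nearest to the start of Phs and was not the strongest of the list. By nearest start only 11 of the 24 had an IDR summit, with 7.34 for the span classes and 14.9% of all protein-coding genes. The strongest peaks of replicates 1, 2 and 3 gave 9, 13 and 10 by nearest start, with 7.35, 7.36 and 7.35. Promoter summits were found at 8 of the 24, with 4.44 for the span classes and 11.4% of all protein-coding genes. Introns of the 24 held 3.40 summits per 100 kb.

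The dpr and DIP genes, which encode immunoglobulin proteins that bind each other to match synaptic partners, had few. A summit was counted for 7 of 31, with 15.9 for the same span classes, and for 7 in each replicate's strongest peaks. Without replicates 1, 2 and 3 the count was 6, 6 and 7, with 12.9, 12.5 and 12.6 for the span classes. An intron summit was found in 1 of 31 (DIP-eta), with 8.31 for the span classes and 5.40% of all protein-coding genes. Per length this was 0.104 per 100 kb of intron. Their best-ranked summits were counted for DIP-iota (rank 1) and dpr14 (rank 483), but lay nearest to the starts of CG11050 and spidey. Over all 30000 pooled peaks they had 145 summits, with 327 for the span classes.

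The other beat and side genes had a summit in 3 of 19 cases, with 10.1 for the same span classes, and in 3 by the strongest peaks of each replicate. The 3 in the IDR list were beat-Ib (rank 53, nearest to the start of CG13244), side-V (rank 1220, nearest to CG13539) and side-IV (rank 1395). Of 30 further wiring genes (receptor phosphatases, cadherins, neurexins, neuroligins and others), 13 had one, with 15.4 for the span classes, led by otk2 (rank 277, nearest to Mppe) and kirre (rank 451, nearest to Syx4). That count was 7, 5 and 8 without replicates 1, 2 and 3, with 12.5, 12.1 and 12.1 for the span classes. Whether these gene lists differ from each other was not tested.

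**Figure D3:**
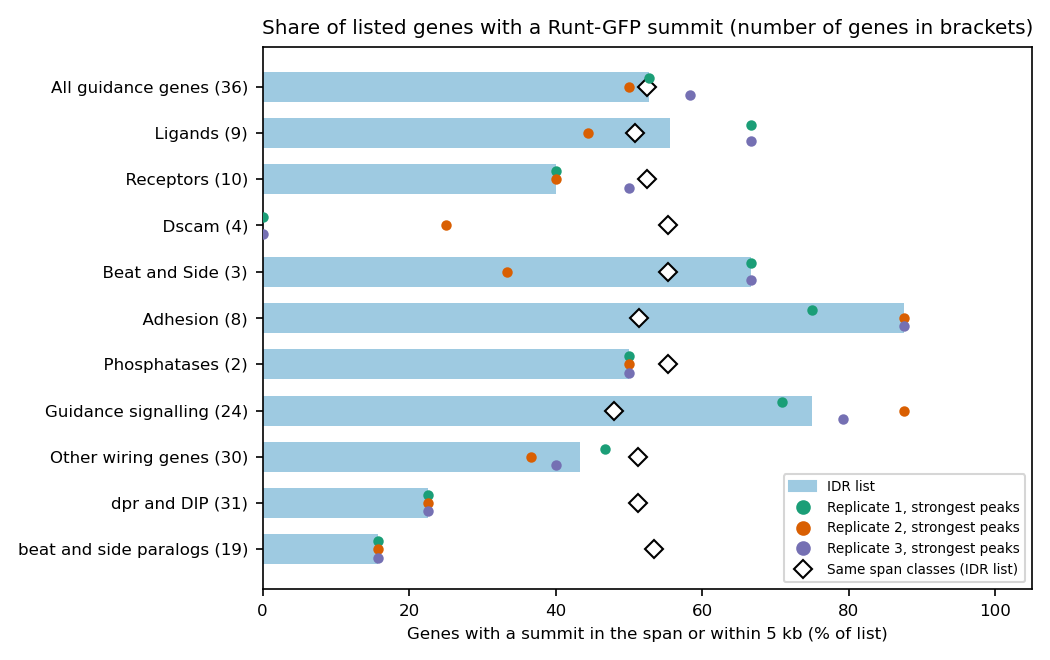
Share of genes with a summit in the span or within 5 kb, for all guidance genes, their roles and 4 further lists of wiring genes. Bars show the IDR list, dots each replicate's strongest peaks and diamonds the share in genes of the same span classes: all guidance genes sit at 52.8% beside a diamond at 52.5%, and the dpr and DIP genes at 22.6% beside 51.2%.

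**Figure D4:**
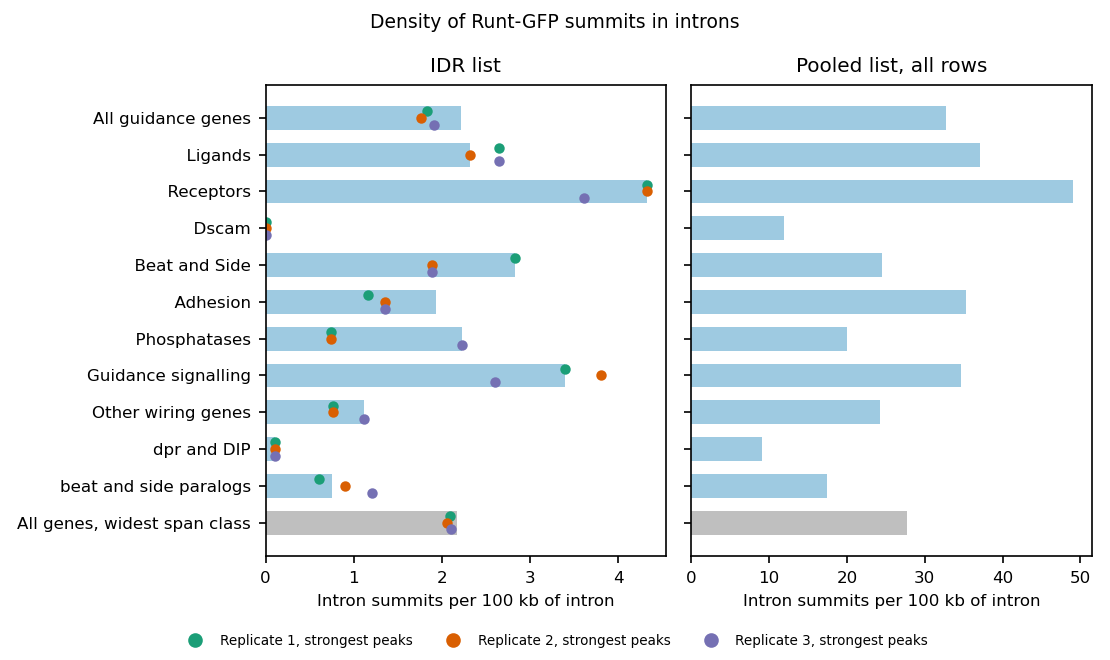
Intron summits per 100 kb of intron in the IDR list (left, with dots for each replicate's strongest peaks) and in all 30000 pooled peaks (right), for the same lists and, in grey, all genes of the widest span class. All guidance genes stand at 2.22 per 100 kb against 2.18 in the left panel, and at 32.8 against 27.8 in the right one.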

How the data were processed

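Runt-GFP ChIP-seq of 3 biological replicates was analysed from the authors' peak lists. Per the readme files, peaks were called on each replicate and on the pooled replicates against 1 shared control alignment on dm6, so the lists are not independent. For the aligner, the caller and the IDR threshold, the sources used here give no name. The deposited signal value ranks peaks within a list, and its scaling is not stated. The deposited −log10 q-value did not vary within the IDR list and was not used. The IDR list was found to equal the 3065 strongest pooled peaks.

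Genes came from Ensembl release 115 (BDGP6.54) and sequence from RefSeq Release 6, both in dm6 coordinates, printed 1-based. All 36 members matched by symbol, and 1 gene of the further lists matched through a synonym. Protein-coding genes were put into 10 classes of equal size by span, and the mean of a member's class gave the value for the same span classes. An intron summit lay in no exon of any gene. Intron length left out sequence within 500 bases of a start. Overlap meant at least 1 base.

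The members and lists were chosen with earlier results of these data known, and no test was run on them. Ranks in all replicates are given for the 12 members with the best-ranked summit inside the gene or at its own promoter, for members with none, and for others where support differed between replicates. The further lists are represented by their 2 best-ranked genes, of which 1 is not reported here, and by others named after their values were seen, as were the remaining IDR summits of members. Nothing in the labels says more on how the biological replicates were raised. The counting was tested on simulated data. Counts were made in Python 3.11.15 with pandas 2.3.3 and numpy 2.4.6, intervals with scipy 1.17.1 and figures with matplotlib 3.10.9.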

Additional observations from a re-analysis of the deposited data

How the results depend on the processing

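The number of guidance genes with an IDR summit was 18 or 19 at distances of 0, 2 and 10 kb, but the value for the same span classes moved from 13.2 through 16.6 to 21.7, so the comparison at 5 kb depends on the distance. Promoter genes numbered 8 with a window of 200 bases (3.88 for the span classes) and 9 with 1000 bases (9.27). With 20 span classes the values were 19.2 for genes with a summit, 44.4 for the 43 summits and 23.3 for the 29 intron summits. Among the strongest 1532 IDR peaks there were 11 guidance genes with a summit, 15 summits, 1 gene with a promoter summit, 8 with an intron summit, 12 intron summits and 5 genes by nearest start, where the span classes gave 12.7, 19.7, 4.15, 5.93, 8.67 and 8.06. With the 6130 strongest pooled peaks there were 96 summits, 17 genes with a promoter summit and 63 intron summits, where the span classes gave 80.5, 12.9 and 39.9. Leaving out replicates, by keeping IDR peaks among the strongest of the other 2, also shortens the list, to 1986 to 2147 peaks. The ranges were 12 to 13 genes with a summit, 18 to 23 summits, 2 genes with a promoter summit in each case, 10 to 11 with an intron summit, 14 to 18 intron summits and 7 to 8 genes by nearest start, which was 16 in the whole list. The span classes gave 14.9 to 15.4 genes with a summit and 25.7 to 27.8 summits. They gave 5.07 to 5.67 genes with a promoter summit and 9.83 to 10.3 genes by nearest start. Each of these counts was then below the span classes, unlike in the whole list. Intron counts stayed above the span classes, which gave 7.56 to 7.78 genes and 11.8 to 12.4 summits. The share of summits with the RUNX consensus was then 13.0% to 22.2%, of 18 to 23 summits, against 8.51% to 8.94% of all IDR summits left. Among the strongest 1532 peaks it was 20%, 3 of 15, against 9.20%. Among the 6130 strongest pooled peaks it was 7 of 96 (7.29%), below the 9.64% of all of them. In the IDR list, a window of 100 bases gave 13.95% against 14.65%, and 1 of 25 bases gave 9.30% against 5.35%. Support in all replicates was 42 of 43 with all 30000 peaks of each replicate and 14 of 43 with an overlap of 50% of the peak. The cause of these moves was not tested beyond the change in list length. No paired analysis was possible because there is 1 group only. Unknown read depth means that no limit of detection can be given for genes without a peak.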

Other observations

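All 7 guidance genes on the X chromosome (Fas2, Ptp10D, Wnt5, NetA, NetB, Nrg and Ten-a) had an IDR summit, as did 12 of the 29 elsewhere: 4 of 8 on arm 2L, 3 of 8 on 2R, 3 of 6 on 3L, 2 of 3 on 3R and 0 of 4 on chromosome 4. Over all protein-coding genes the share with a summit was 30.5% on X and 33.6% to 35.9% on the 4 large autosomal arms. This pattern was noticed after the values were seen, no test was run on it, and gene span differs between these members.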
